A study of Mus musculus with 6 samples.

Results

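Immediate early genes are transcribed within minutes of a stimulus, without new protein synthesis, when growth factor, stress or cyclic AMP signals reach factors already bound at their promoters. Many encode transcription factors: Fos and Jun family proteins pair through leucine zippers to form AP-1, and their transcripts and proteins are short-lived. In cultured cells and embryos their level is known to follow growth factor signalling through the MAP kinases and the handling of the cells. The 10 genes described here are Fos, Fosb, Jun, Junb and Atf3, which encode AP-1 or related leucine zipper proteins, the zinc finger factor genes Egr1 and Klf6, the antiproliferative gene Btg2, and Ier2 and Ier3, named for their immediate early response. They were chosen by function and with earlier results of these arrays in view, in which a list containing them lay lower with doxycycline. The values of the doxycycline comparison are therefore given below as a description, with no test. All 10 genes were on the array, with 16 probe sets named for 1 of them alone, of 45037 probe sets that are not controls. Of these 16, 15 passed the filter on low signal, and the single Fosb probe set did not.

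The samples were mouse embryoid bodies, aggregates in which embryonic stem cells differentiate, of the Hoxb4i line. All 6 samples carry its integrated tet-on cassette, from which doxycycline drives HOXB4, and all were collected on day 6. The uninduced group (3 arrays) received no doxycycline, and the induced group (3 arrays) received it at 2 µg/ml for 48 hours from day 4. The pairs come from experiments A, B and C, and the labels do not say how these experiments differed. Doxycycline on cells without the cassette was not analysed here, so HOXB4 and the drug itself cannot be told apart. Signals are MAS5 values per probe set, and log2 values are of the signal plus 18.8.

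The median signal was 92.0 to 108.6 on the 6 arrays. The 3' to 5' ratio of the Actb control probe sets was 2.88 on the uninduced array of A and 1.26 to 1.48 on the other 5. Both Hoxb4 probe sets were higher on the induced array in all 3 experiments, by 0.044 to 1.87 log2 units, and the labels do not say whether they detect the cassette's transcript. Day 6 embryoid bodies can hold stem cells, endoderm, mesoderm, blood, endothelium, heart, neural tissue and mesenchyme. The markers of these found on the array by name passed the filter on low signal, apart from the primitive streak gene Mixl1. Of the 6 listed mesoderm and primitive streak markers, 5 were found on the array by name and 4 were tested. The macrophage genes Ptprc, Tyrobp and Fcer1g did not pass it.

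The promoters of 5 members are shown because the results below turn on these genes. Each stretch holds the 170 bases directly before the annotated transcription start, from RefSeq on GRCm38.p6, 5' to 3' along the gene's own strand. The windows searched ran from 250 bases before to 50 after the start, on both strands. They were found for 8 of the 10 members, all but Egr1 and Ier2. Capitals mark matches to TGACGTCA, the full cyclic AMP response element, to TGACG, which lies inside that element and was also searched alone, to TGACATCA, the form known from the Jun promoter, and to TATAAA. The coordinates are chr12:85473720-85473889 (plus strand) for Fos, chr4:95052223-95052392 (minus) for Jun, chr13:5861319-5861488 (plus) for Klf6, chr1:191183334-191183503 (minus) for Atf3 and chr1:134079156-134079325 (minus) for Btg2.
Fos: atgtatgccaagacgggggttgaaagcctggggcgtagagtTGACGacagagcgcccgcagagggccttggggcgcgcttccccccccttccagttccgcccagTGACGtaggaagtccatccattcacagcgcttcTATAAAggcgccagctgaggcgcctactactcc
Jun: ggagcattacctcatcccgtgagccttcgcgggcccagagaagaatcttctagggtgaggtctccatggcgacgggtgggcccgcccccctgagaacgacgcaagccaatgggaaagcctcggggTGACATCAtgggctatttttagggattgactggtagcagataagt
Klf6: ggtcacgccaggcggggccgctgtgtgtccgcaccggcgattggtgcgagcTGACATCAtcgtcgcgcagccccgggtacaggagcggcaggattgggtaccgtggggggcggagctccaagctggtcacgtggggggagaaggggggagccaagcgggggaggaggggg
Atf3: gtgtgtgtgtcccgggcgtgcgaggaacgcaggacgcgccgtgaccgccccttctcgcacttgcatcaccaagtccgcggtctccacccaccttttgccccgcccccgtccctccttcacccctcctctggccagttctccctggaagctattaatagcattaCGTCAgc
Btg2: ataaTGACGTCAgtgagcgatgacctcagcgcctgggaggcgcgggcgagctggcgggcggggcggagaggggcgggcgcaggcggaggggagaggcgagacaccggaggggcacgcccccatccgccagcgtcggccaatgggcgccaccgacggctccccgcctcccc

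TGACATCA was found in the windows of 2 of the 8 members, Jun at 45 to 38 bases and Klf6 at 119 to 112 bases before the start, and in 3.62% of all 32851 promoter windows. TGACGTCA was found in that of Btg2 alone, at 166 to 159 bases before the start, and in 1.79% of all windows. TGACG was found in 5 of the 8 (Fos, Fosb, Junb, Atf3 and Btg2) and in 20.8% of all windows. TATAAA was found in those of Fos and Junb and in 13.6% of all windows. In Fos it lay 33 to 28 bases before the start, whereas in Junb it did not lie before the start. Neither the AP-1 site TGACTCA, present in 5.20% of all windows, nor the CArG box bound by serum response factor, present in 1.63%, was matched in these 8 windows. These are matches of letters in a short window and were not set against binding data. Sites farther from the start, and any in Egr1 and Ier2, were not searched.

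Several of these genes differed between the 3 experiments. Fos, Jun, Klf6 and Atf3 were higher in experiment B than in C by 2.12- to 3.19-fold on 8 probe sets, and Egr1 was 2.97-fold higher in A than in C. In a limma F test over the 3 experiments, with doxycycline as a covariate and adjustment over all 27022 tested probe sets, 8 of the 15 tested member probe sets passed, against 11.4% of all. They belong to 4 genes, Fos, Jun, Egr1 and Klf6. Each experiment holds 1 uninduced and 1 induced array, so the test measures differences against the spread left within these pairs. Where 1 array is left out below, its experiment keeps 1 array, which is assumed to vary like the other arrays.

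**Figure D1:**
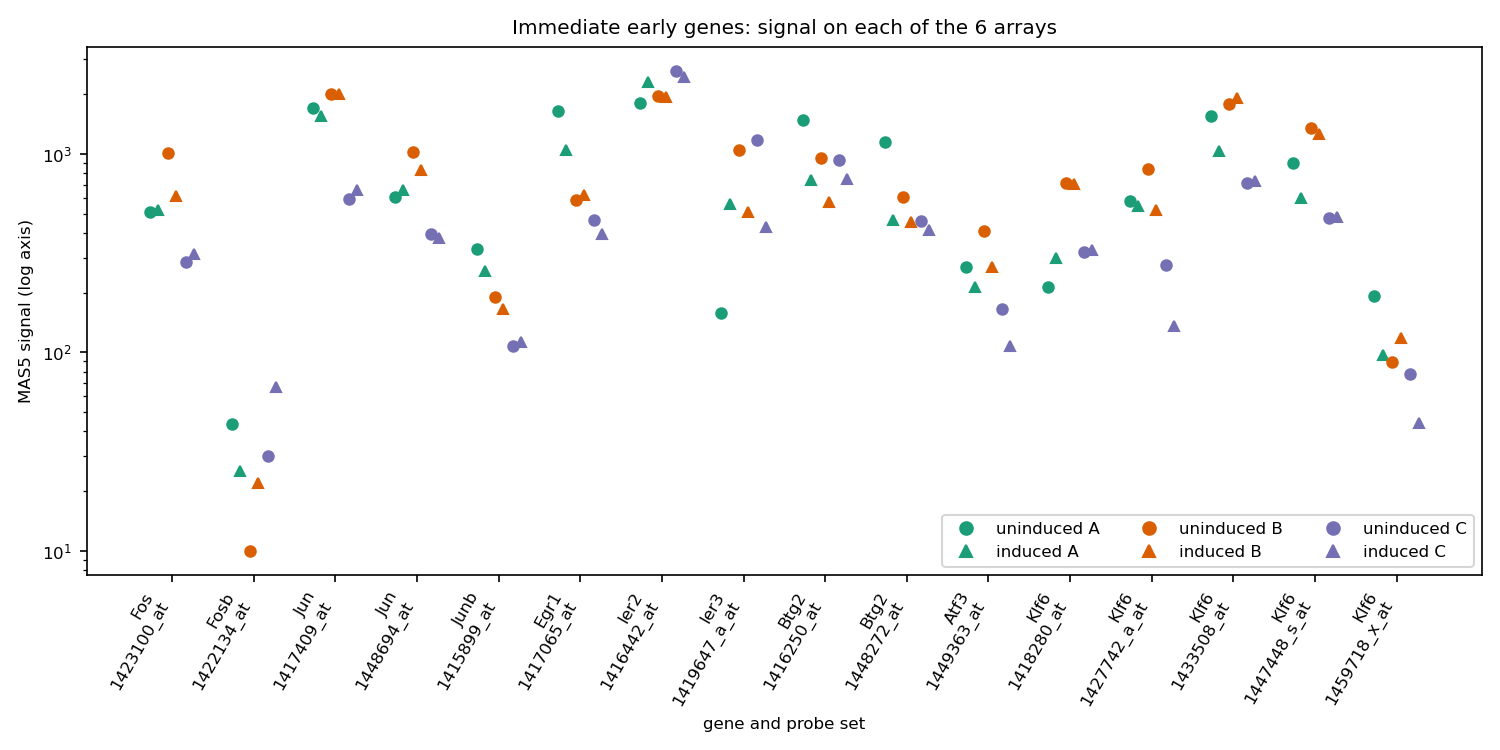
MAS5 signal (log axis) of the 16 probe sets of the 10 immediate early genes on each array; colours are experiments A, B and C, circles uninduced and triangles induced samples. For Fos and Jun both purple symbols of experiment C lie below all 4 others, while for Ier3 the uninduced array of A stands alone at 158.7.

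Jun, the main AP-1 partner of Fos, was measured by 2 probe sets. On 1417409_at its signal was 1706.7, 2009.0 and 594.6 on the uninduced arrays of A, B and C and 1542.0, 2002.7 and 656.0 on the induced ones. Both arrays of C were thus far below the other 4, while induced and uninduced arrays lay close together in each experiment. Jun was 3.15-fold higher in B than in C, a log2 difference of 1.65 with a 95% interval of 1.21 to 2.10 (limma, adjusted p = 0.00178), and past the threshold under all 15 alternatives run. In A it was 2.55-fold higher than in C, at 1.35 (0.90 to 1.80, adjusted p = 0.0125), which was lost without the uninduced (adjusted p = 0.115) or induced (0.0652) array of C. Its second probe set, 1448694_at, gave 605.5, 1026.5 and 393.2 uninduced and 655.6, 828.5 and 376.2 induced. It ordered the experiments the same way, and B exceeded C by 1.22 (0.69 to 1.76, adjusted p = 0.0153), a call that ended when any 1 array of B or C was left out (adjusted p = 0.116 to 0.251).

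Fos, the inducible AP-1 partner of Jun, had signals of 510.7, 1014.3 and 284.0 on the uninduced arrays of A, B and C and 522.5, 611.3 and 314.2 on the induced ones. The highest value was that of the uninduced array of B, and both arrays of C were the lowest. Fos was 2.54-fold higher in B than in C, at 1.35 (0.69 to 2.00, adjusted p = 0.0234). Left out singly, the uninduced arrays of B (0.95, adjusted p = 0.334) and C (1.11, 0.213) and the induced C array (1.58, 0.0723) each ended this call. Between A and C, Fos differed by 0.75 (0.10 to 1.41), which did not pass (adjusted p = 0.135).

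Atf3, a stress-responsive leucine zipper gene of the ATF/CREB family, gave 267.7, 409.0 and 165.6 uninduced and 214.5, 269.5 and 107.2 induced in A, B and C. Experiment B was highest and C lowest, and within each experiment the induced array was the lower. B exceeded C 2.30-fold, by 1.20 (0.54 to 1.87, adjusted p = 0.0381), while the F test over all 3 experiments did not pass (adjusted p = 0.0634). The call between B and C was lost when any 1 array of B or C was left out (adjusted p = 0.187 to 0.302).

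Junb, which encodes an AP-1 protein known to restrain Jun in many settings, gave 330.6, 190.6 and 107.8 uninduced and 257.9, 165.0 and 113.1 induced. Here A was highest and C lowest, with no overlap between the experiments. The difference of 1.27 between A and C (0.56 to 1.98) did not pass (adjusted p = 0.0504), nor did the F test (adjusted p = 0.0687). Fosb, a close relative of Fos, gave 10 to 66.9 over the 6 arrays and was not tested.

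**Figure D2:**
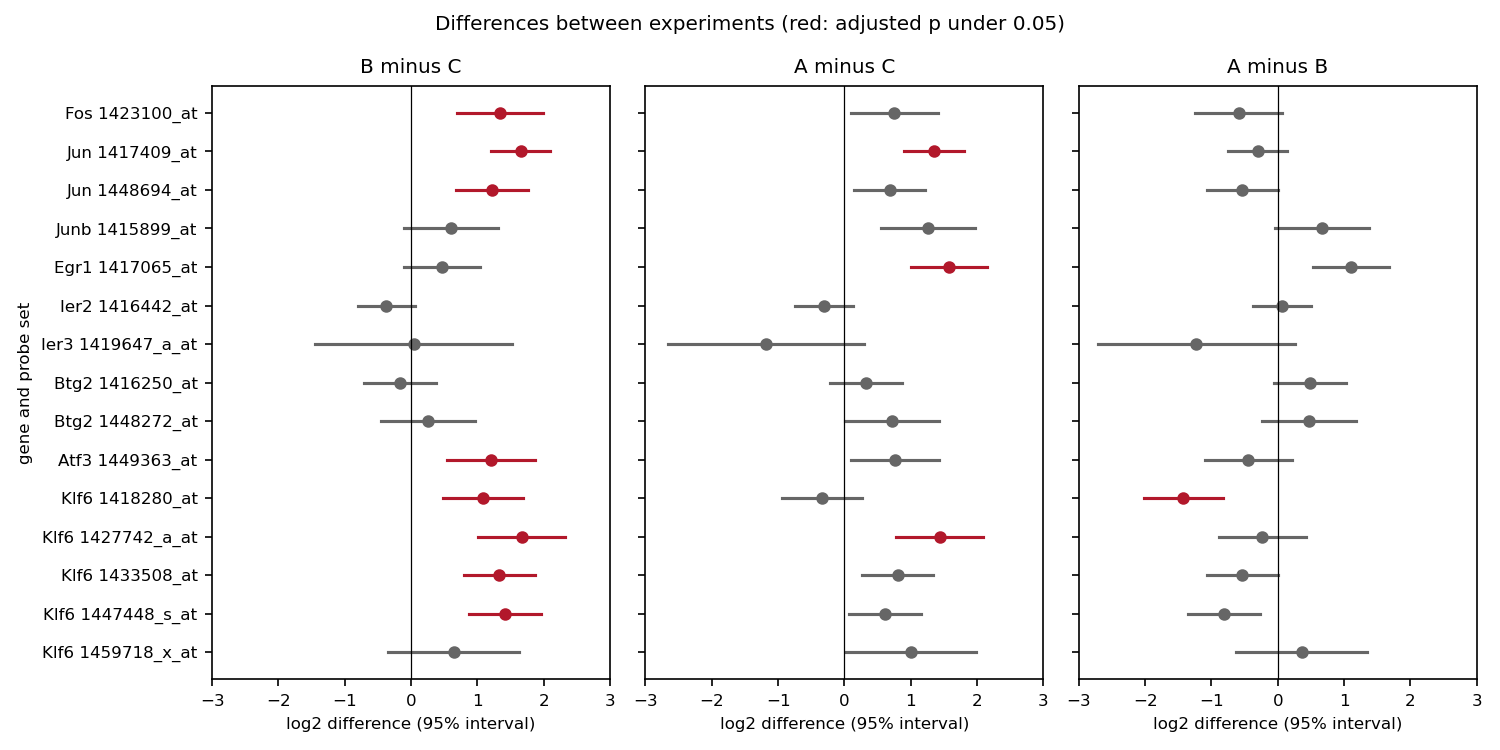
Log2 differences between experiments, with 95% intervals, for the 15 tested probe sets; red marks an adjusted p under 0.05 over all tested probe sets. The B minus C panel holds 8 red points, all to the right of 0, for Fos, Jun, Atf3 and Klf6, and the A minus C panel holds 3, for Jun, Egr1 and Klf6.

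Klf6, a zinc finger factor of the Krüppel-like family, was measured by 5 probe sets. On 1433508_at, the brightest, the signal was 1559.3, 1788.5 and 713.9 uninduced and 1034.6, 1906.0 and 727.4 induced in A, B and C. Both arrays of B were the highest and both of C the lowest. B exceeded C 2.52-fold, by 1.33 (0.80 to 1.87, adjusted p = 0.0105). Probe sets 1427742_a_at, 1447448_s_at and 1418280_at placed B above C as well, by 1.67, 1.42 and 1.08 (adjusted p = 0.00963, 0.00858 and 0.0393). On 1459718_x_at, whose suffix marks probes that can cross-hybridize, the difference of 0.64 did not pass (adjusted p = 0.419). Leaving out any 1 array of B or C ended the calls on 1433508_at (adjusted p = 0.0523 to 0.184) and 1418280_at (0.186 to 0.360). The call on 1427742_a_at ended without either B array or the induced C array (0.0691 to 0.110), and that on 1447448_s_at without either B array or the uninduced C array (0.0796 to 0.139).

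The Klf6 probe sets disagreed on A. On 1418280_at A was the lower by 1.42 against B (adjusted p = 0.0296) and stood near C, whereas on 1427742_a_at A exceeded C by 1.44 (adjusted p = 0.0299) and stood near B. The first call was lost without the uninduced (adjusted p = 0.382) or induced (0.128) array of B, and the second without the uninduced (0.0919) or induced (0.171) array of C. The Klf6 probe set 1418280_at is the single member probe set called lower in A than in B, a call made for 2.01% of all tested probe sets.

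Egr1, a zinc finger factor that follows growth factor signals, ordered the experiments differently. Its signal was 1639.2, 583.7 and 465.4 on the uninduced arrays of A, B and C and 1046.5, 617.7 and 393.8 on the induced ones. Both arrays of A lay above the other 4, a pattern shared by Junb, and by 15.4% of all tested probe sets. Egr1 was 2.97-fold higher in A than in C, at 1.57 (1.00 to 2.15, adjusted p = 0.0160). Against B it was higher by 1.10 (0.53 to 1.68), which did not pass (adjusted p = 0.0530). The uninduced array of A, with the high Actb ratio, gave the highest Egr1 value. Without it the difference between A and C was 1.29, from a single array of A, under a setting in which 31.7% of all tested probe sets passed the F test. Without the uninduced or induced array of C the call was lost (adjusted p = 0.105 and 0.0826).

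Ier2, Ier3 and Btg2 did not pass the F test (adjusted p = 0.311 for Ier2, 0.299 for Ier3, and 0.316 and 0.252 for the 2 probe sets of Btg2). Ier2, which encodes a nuclear protein, gave 1806.3 to 2613.4 over all 6 arrays, and the 95% intervals of its 3 differences between experiments all lay within -0.81 to 0.50. For Ier3, which encodes a survival-linked stress protein, the intervals reached from -2.71 to 1.52, so that differences of several-fold could not be told from the spread.

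Counted over the members, B exceeded C past the threshold on 8 of 15 probe sets, against 5.14% of all, and on 0 the reverse held, against 4.20% of all. A exceeded C on 3 of 15, against 4.15%. The median log2 difference of B over C was 1.08 over the 15 member probe sets and -0.070 over all tested probe sets. That of A over C was 0.75 against 0.0039. Both arrays of C lay below the other 4 on 10 of the 15 probe sets, of Fos, Jun, Junb, Egr1, Atf3 and Klf6, against 15.2% of all. Klf6 has 5 of the probe sets and Jun and Btg2 2 each, so these are not independent. With 1 probe set per gene, the F test passed for 4 of 9 genes. On that probe set B exceeded C by 1.65 for Jun, 1.35 for Fos, 1.33 for Klf6 and 1.20 for Atf3. The difference was 0.60 for Junb, 0.47 for Egr1, 0.039 for Ier3, -0.17 for Btg2 and -0.37 for Ier2.

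The counts depend on the spread within few arrays. Without the uninduced or induced array of A, 9 and 14 of the 15 passed the F test, against 31.7% and 50.5% of all tested probe sets. Without the uninduced or induced array of B, 2 and 3 passed (5.49% and 6.37% of all). Without those of C, 2 and 1 passed (5.60% and 5.53%). When the variances were moderated without a trend in intensity, 1 of 15 passed, against 4.22% of all, and 7 of the 12 called differences between pairs of experiments no longer passed. The difference between B and C also missed the threshold without a filter on low signal for Atf3 (adjusted p = 0.0737) and Klf6 1418280_at (0.0575), and without the doxycycline term for Atf3 (0.0503).

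Signals of tissue marker genes differed between the same experiments. Summed over its 6 genes, the neural list gave 234.6 and 452.6 in B, 1286.7 and 2129.4 in A and 3223.3 and 4021.4 in C. The stem cell list gave 1235.8 and 1637.5 in B, 4188.6 and 6031.7 in A and 9501.2 and 9539.0 in C. Both lists were thus lowest in B. Both arrays of B lay above the other 4 on 7 of the 15 member probe sets, those of Fos, Jun and Atf3 and 3 of the 5 of Klf6, against 12.1% of all tested probe sets. In the other direction, the mesenchyme list gave 30852 and 33104 in B against 4006.3 and 4179.4 in C, and the endothelial list 5119.7 and 6228.9 against 707.0 and 794.6. The blood list gave 26136 and 36052 in B, and 670.4 to 3861.0 in A and C.

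By gene, 6 of 6 endothelial, 5 of 6 mesenchymal, 4 of 6 heart, 3 of 6 endoderm, 3 of 6 blood and 2 of 4 tested mesoderm markers were higher in B than in C past the threshold. On the other side 5 of 6 neural and 4 of 6 stem cell markers were lower in B, and 0 of 3 tested macrophage markers passed either way. The stem cell count fell to 1 without the induced array of B or the uninduced array of C and to 2 without the induced array of C, and the neural count to 3 without the induced array of C. The mesoderm count fell to 1 without the induced array of B or of C, and the blood count was 5 without either array of A. Moderating the variances without the intensity trend left stem cell, blood and mesoderm counts of 2, 1 and 1. With the filter at the 60th percentile, which tests 18015 probe sets instead of 27022, the endothelial count was 2.

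The differences of Jun, Egr1 and Klf6 between A and C also stood beside differences in tissue markers. The endoderm list summed to 6701.5 and 7931.6 in A against 606.5 and 726.8 in C, and the heart list to 1647.9 and 1564.2 against 499.8 and 324.7. By gene, 4 of 6 endoderm and 3 of 6 heart markers were higher in A than in C past the threshold, and 2 of 6 neural markers and 1 of 6 stem cell markers were lower. The endoderm and heart counts stayed within 1.5 times under every alternative run, while the neural and stem cell counts were 0 without the uninduced array of C. Between A and B, where the Klf6 probe set 1418280_at differed, 5 of 6 endothelial and 5 of 6 mesenchymal markers were lower in A. So were 3 blood markers, and 1 each of the heart, endoderm and mesoderm lists. Higher in A than in B were 2 endoderm, 2 neural, 1 stem cell and 1 mesoderm marker. In whole embryoid bodies, more cells of a type and more transcript per cell cannot be told apart. The part of these marker differences in the levels of the immediate early genes was not tested.

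**Figure D3:**
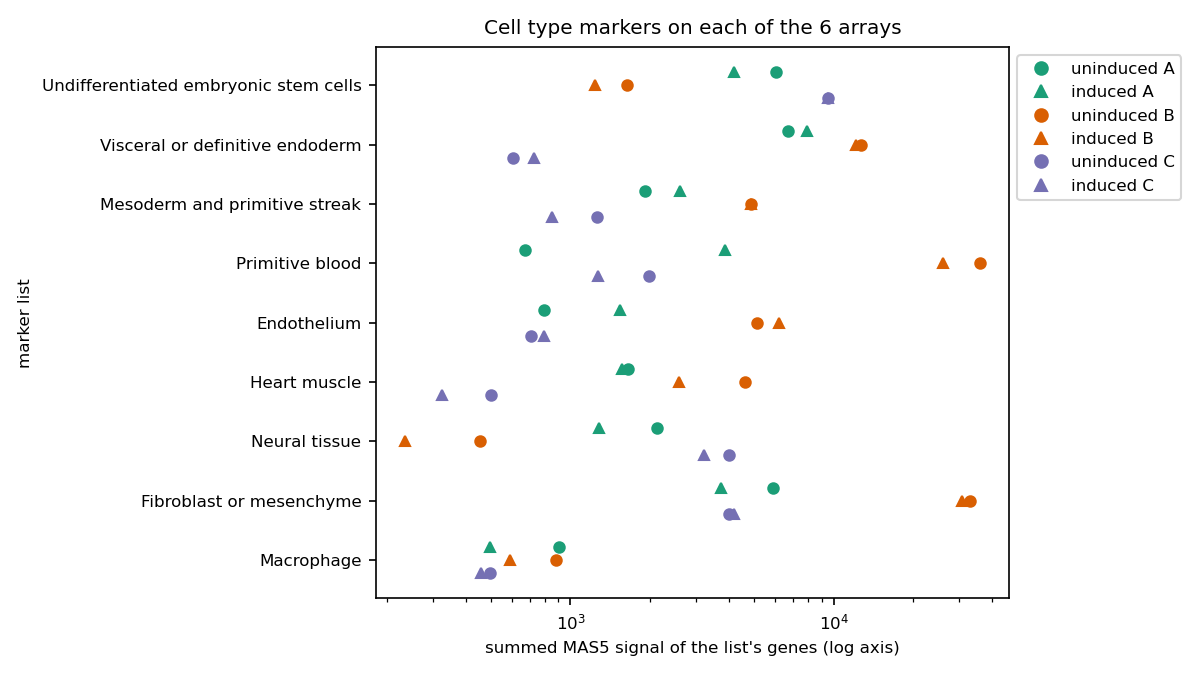
Summed MAS5 signal (log axis) of each cell type marker list on each array, with colours and symbols as in the plot of member signals. Neural and stem cell lists are lowest in B and highest in C, while mesenchymal, endothelial and blood lists are highest in B, the last between 26136 and 36052.

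Of 50 other immediate early genes, 46 were tested and 17 passed the F test, against 11.4% of all tested probe sets. They did not move one way: 7 were higher and 6 lower in B than in C, against 5.14% and 4.20% of all, and the median difference was 0.043. Zfp36l2, which encodes a protein that destabilises AU-rich transcripts, was higher in B by 1.82 (adjusted p = 0.00113), and the TGF-beta inducible gene Klf10 by 0.88 (0.0256). Lower in B were Dusp6, which encodes an ERK phosphatase and is read as a reporter of FGF signalling, by -2.05 (0.00133), and Ccn2, a matricellular target of YAP and serum response factor, by -2.19 (0.00182). Rhob, a small GTPase gene, was also lower, at -0.99 (0.0104). The kinase gene Plk3 gave 7.7 and 9.0 in B, below the offset of 18.8, 54.3 and 88.9 in A and 210.6 and 157.1 in C. It was lower in B (adjusted p = 0.00665), but the size depends on the offset: the log2 difference was -2.89 with 18.8 and -1.38 with 100. The calls of Klf10 and Rhob ended when any 1 array of B or C was left out (adjusted p = 0.157 to 0.390 and 0.0853 to 0.170), and that of Plk3 without the uninduced C array (0.0503). With single arrays of B or C left out, 6 to 9 of the 46 passed the F test, against 5.49% to 6.37% of all. Without the uninduced or induced array of A, 26 and 33 passed, against 31.7% and 50.5%. Without the intensity trend 5 passed (4.22% of all), and without a filter on low signal 10 (5.03%).

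A list of upstream regulators, kinases among them, held 23 genes, of which 17 were found on the array by name, and all 17 were tested. In the F test 1 passed, beside 11.4% of all tested probe sets. It was Elk3, which encodes a partner of serum response factor. Its signal was 841.6 and 1073.0 in B, uninduced and induced, against 235.1 and 163.9 in C. Elk3 is also known as a gene of endothelium, whose markers were higher in B than in C, and the part of this in its level was not tested. It was 4.50-fold higher in B than in C, by 2.17 (1.36 to 2.98, adjusted p = 0.00768). The call ended without the induced array of B (adjusted p = 0.0515) or of C (0.0668). The kinase genes Braf and Rps6ka3 and the cofactor gene Mrtfb followed by p, at adjusted F test p values of 0.108, 0.138 and 0.148.

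Within each experiment the induced and uninduced arrays differed by less than 1 log2 unit on all but 2 of the 16 member probe sets, those being Ier3 and the Btg2 probe set 1448272_at. In limma, 0 of all tested probe sets passed for doxycycline (0%; 146 at an unadjusted p under 0.05), with and without the experiment as a replicate block (1071 at an unadjusted p under 0.05 with it). This contrast entered the choice of the genes, so what follows is a description. The members' median difference, induced minus uninduced, stood at -0.30, -0.19 and -0.099 in the 3 experiments, beside -0.044, 0.0081 and 0.018 over all tested probe sets. The difference was negative in all 3 experiments on 4 of 15 member probe sets, against 13.2% of all, and positive in all 3 on 0, against 12.8% of all.

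**Figure D4:**
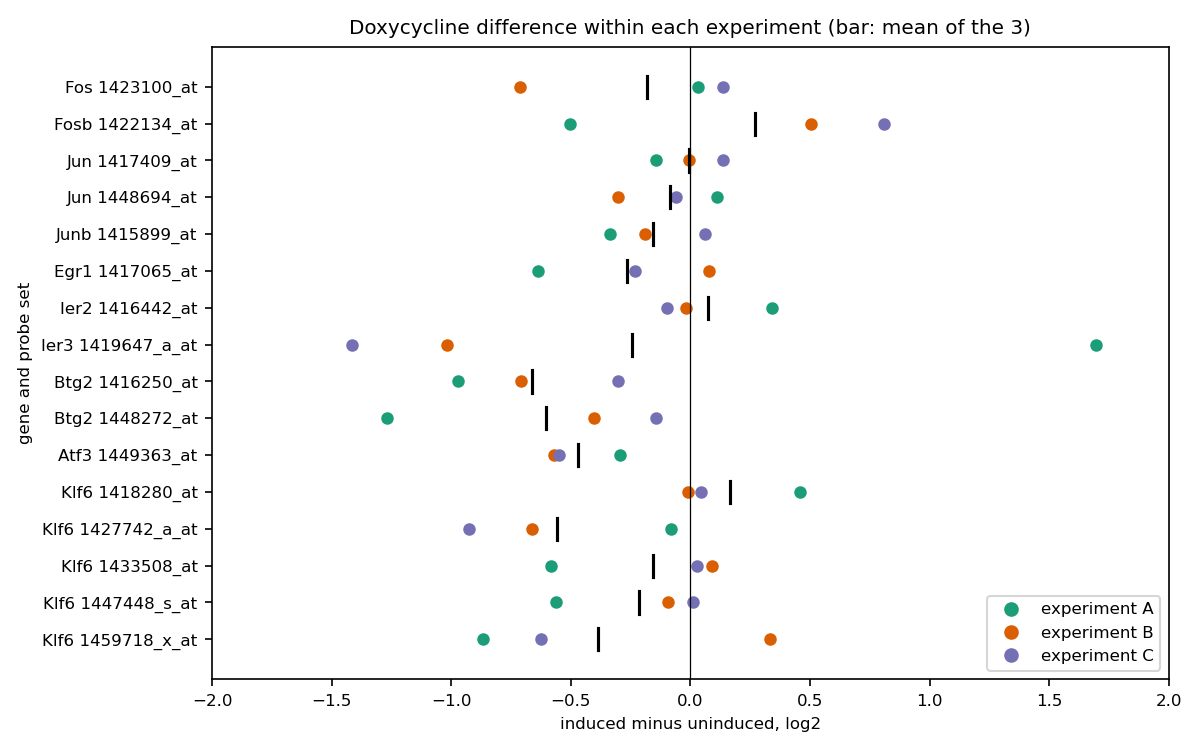
Log2 difference of the induced from the uninduced array within experiments A, B and C for each of the 16 probe sets, with a black bar at the mean of the 3. Both Btg2 probe sets and Atf3 lie left of 0 in all 3 experiments, and Ier3 spans from -1.42 in C to 1.70 in A.

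Btg2, which encodes a protein that slows cell division and is a known p53 target, had the most negative mean among the members. On 1416250_at the uninduced signals were 1473.8, 950.9 and 927.8 in A, B and C and the induced ones 742.0, 574.3 and 749.1. All 3 induced arrays lay below all 3 uninduced, which no other tested member probe set showed and 2.12% of all did. The differences were -0.97, -0.71 and -0.30, with group means of 1118 ± 309 (SD, n = 3) uninduced and 688 ± 98.9 (SD, n = 3) induced. On 1448272_at they were -1.27, -0.40 and -0.14, and the groups overlapped: the uninduced array of C, at 459.5, was below the induced array of A, at 464.4. On both probe sets the uninduced array of A, with its high Actb ratio, was the highest of the 6, and the part of its RNA quality in this difference was not tested.

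Atf3 was lower with doxycycline by -0.30, -0.57 and -0.55 in A, B and C, with group means of 281 ± 122 (SD, n = 3) uninduced and 197 ± 82.5 (SD, n = 3) induced. The groups overlapped: the induced array of B, at 269.5, exceeded the uninduced arrays of A and C. The Klf6 probe set 1427742_a_at was lower by -0.082, -0.66 and -0.93, but on 1433508_at the differences were -0.58, 0.091 and 0.026, so that the Klf6 probe sets gave no common direction.

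For Jun the differences on 1417409_at were -0.14, -0.0045 and 0.14, a mean of -0.0039, beside the 3.15-fold difference between B and C. Fos was lower in B alone, at -0.71, with 0.032 in A and 0.14 in C. Egr1 gave -0.64, 0.079 and -0.23, Junb -0.34, -0.19 and 0.059, and Ier2 0.34, -0.020 and -0.099. None of these 5 had the same sign in all 3 experiments. Fosb gave -0.50, 0.51 and 0.81, below the filter on low signal.

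Ier3 differed by over 2-fold in opposite directions. Its signal was 158.7, 1045.8 and 1169.9 uninduced and 556.3, 506.8 and 426.9 induced in A, B and C. The 3 induced values lay close together, while the uninduced array of A was far below the other 2 uninduced arrays. Induction went with a log2 difference of 1.70 in A but of -1.02 and -1.42 in B and C.

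The genes whose pattern over the 6 arrays was most like the members' mean profile were Rp9, Necap1, Cyp1a1, Fam221a and Mta3, with Pearson correlations of 0.998, 0.992, 0.988, 0.987 and 0.985. Without the uninduced array of A these were 0.997, 0.998, 0.990, 0.986 and 0.984. The 6 arrays are 3 pairs that share an experiment, and 200 of 12434 genes exceeded 0.9, so the order is a description of these arrays.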

How the data were processed

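The values are intensities as the authors deposited them, linear probe set summaries of Affymetrix Mouse Genome 430 2.0 arrays that the submitters' processing notes credit to MAS5. Its version is not given in the sources used here. All 6 arrays had a 2% trimmed mean of 500 and thus share a scale. Precision is limited by the 6 arrays, and detection calls were not used.

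From these intensities, log2(signal + 18.8) was computed, the offset being the 20th percentile of all values. Probe sets with a mean log2 value under the 40th percentile were not tested, leaving 27022. Gene names come from the platform annotation in GEO, with symbols updated through a RefSeq table of GRCm38.p6. A gene with several probe sets was represented by its brightest tested one, and every member probe set is given.

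Tests used limma 3.58.1 in R 4.3.3 across all tested probe sets, two-sided (additive model of experiment and doxycycline, empirical Bayes with an intensity trend, Benjamini-Hochberg adjustment separately for the F test and each contrast, threshold 0.05). The 3 contrasts per probe set are one family of questions on the same 6 arrays. By the labels a letter marks an experiment that both groups share. Deviations of arrays from their group's mean correlated at 0.441 to 0.669 within letters and -0.530 to -0.112 across them. A group's deviations sum to 0, so the values across letters must balance those within and are no separate evidence. From the labels and the values within letters, the letters were taken to pair the arrays. Nothing says that samples came from separate cultures beyond the stated biological replicates. The fit was tested on simulated data for the difference between A and C. Shifts were set in C, with the same noise for all probe sets and arrays.

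The members, lists and tests were chosen with earlier results of these data known. Named outside the members, by a rule set at the start, were up to 6 of the 50 other immediate early genes and 4 of the 23 regulators with the smallest F test p, and the 5 genes most like the members' mean standardised profile. Alternatives were the offset (1 or 100), the filter (none, or the 60th percentile), quantile or median normalization, no doxycycline term, no intensity trend, and leaving out arrays or experiments. The same alternatives for the other lists and the markers, the counts of arrays that do not overlap, and the 5 promoters shown were chosen after values were seen.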

Additional observations from a re-analysis of the deposited data

Results flagged for a closer look

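Ier3 was the only tested member probe set whose doxycycline difference exceeded 2-fold in opposite directions in different experiments: on 1419647_a_at experiment A gave 1.70, B -1.02 and C -1.42 on the log2 scale. Its lowest signal, 158.7, came from the uninduced sample of A, where Actb had a 3' to 5' ratio of 2.88. With 1 pair of arrays per experiment the difference between experiments was not tested.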

How the results depend on the processing

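Leaving out 1 array or both arrays of an experiment gave 1070 to 13645 probe sets past the F test over all (3071 on 6 arrays) and 1 to 14 among the members (8). Without the intensity trend these were 1141 and 1, and with 1 probe set per member gene 4 passed. The other settings kept both counts within 1.5 times. Of the 46 other immediate early genes tested, 17 passed the F test, 4 to 33 with arrays left out, 10 without a filter on low signal, 11 at the 60th percentile and 5 without the trend. Of the 17 regulators 1 passed, 0 to 10 with arrays left out and 0 without the trend. Of 180 values of the members' called differences under alternatives, 137 stayed past the threshold, 43 did not and 0 changed direction. The filter, the doxycycline term and the intensity trend left these estimates unchanged, and leaving out arrays of A did so for B against C. Such alternatives could not change a direction. The members' median doxycycline difference of -0.21 ran from -0.60 to 0.066 with arrays left out. The count of member probe sets lower in every remaining experiment ran from 6 to 7 (4 in all 3), since fewer experiments then have to share a sign. With the experiment as a replicate block, limma called 0 probe sets for doxycycline, as without it. Of 224 doxycycline values of single probe sets, 197 moved by less than the SD between experiments. With 2 arrays per experiment, small differences could not be told from the spread.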
